A study of Mus musculus with 6 samples.

Results

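ETV transcription factors and the feedback inhibitors of ERK signaling were examined in MC3T3-E1 pre-osteoblasts treated with α-ketoglutarate-based microparticles. The set holds 10 genes, namely Etv1, Etv4, Etv5, Dusp6, Spry1, Spry2, Spry4, Spred1, Spred2 and Il17rd, out of 26187 genes with a value in every library. They were chosen by name from a known pathway, but with the difference between the treated and untreated libraries already seen, so their own differences are given as descriptions without p-values. The PAKG group was cultured in OC medium, which the paper calls osteoconductive. This medium contains β-glycerophosphate and a form of ascorbic acid, named in the paper as L-ascorbic acid. The group received microparticles named PAKG–8diol–PEG(S) MPs for 2 days at a dose of 30 μg/ml. These are small particles of a polyester built from α-ketoglutarate, an aliphatic diol and polyethylene glycol. The OC group received no MPs and was kept in the same medium. Each group had 3 poly(A) RNA libraries from one established line derived from mouse calvaria, and the cell experiments of the study used triplicate wells, but whether each RNA library is one well or a separate experiment is not stated in the sources used here. The p-values below therefore reflect the spread of these 6 libraries alone, which may be that of wells in one experiment. No particle without α-ketoglutarate was sequenced, so the metabolite and the particle cannot be told apart.

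ERK is the last kinase of the cascade that runs from growth factor receptors through Ras, Raf and MEK. Active ERK raises transcription of the PEA3-type ETS factors Etv1, Etv4 and Etv5, in part by releasing their genes from the repressor Capicua, and these factors are widely used as a transcript readout of the pathway. ERK also raises its own inhibitors. Dusp6 is a cytoplasmic phosphatase of ERK, Sprouty and Spred proteins block the path from receptor to Ras and Raf, and Il17rd (Sef) is a membrane protein that dampens FGF signaling. In bone, FGF receptors are major inputs to this cascade, and it takes part in osteoblast proliferation and differentiation.

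All 10 genes had a lower mean FPKM in PAKG than in OC. Among the 8 with enough signal for a test, Etv4 and Etv5 were the lowest relative to OC, at 15.9% and 30.9% of their OC means, followed by Spry1 at 36.8% and Dusp6 at 41.9%. Spred2, Il17rd, Spred1 and Spry2 stood at 63.5%, 72.7%, 77.7% and 91.5% of OC. The 3 PAKG libraries were all below the 3 OC libraries for 8 of the 10 genes, and the groups overlapped for Spry2 and Il17rd. Of all 12590 genes tested, 19.6% had every PAKG library below every OC library. The test was limma on log2(FPKM + 0.1), a scale that understates the change of low genes, and 8 of the 10 genes reached the mean of 0.5 FPKM it required. Of these 8, 4 were lower at both thresholds of the study (a Benjamini-Hochberg adjusted p below 0.05 together with a 2-fold change), namely Etv4, Etv5, Dusp6 and Spry1, whereas 0.58% of all tested genes were lower and 0.866% higher by the same rule. Etv4 and Spry1 averaged under 0.5 FPKM in PAKG (0.45 and 0.303 FPKM). They passed the filter only through OC, where they were higher, so a call of higher was hardly open to them. Without a filter Etv4 kept its call and Spry1 lost it. With the adjusted p alone 6 of the 8 were lower, Spred1 and Spred2 being added, and this rule called 8.73% of all tested genes lower and 5.97% higher. Since the genes were selected on this contrast, the counts are not evidence of a group effect. In bulk RNA, fewer cells that express a gene and less of its RNA per cell cannot be told apart.

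**Figure D1:**
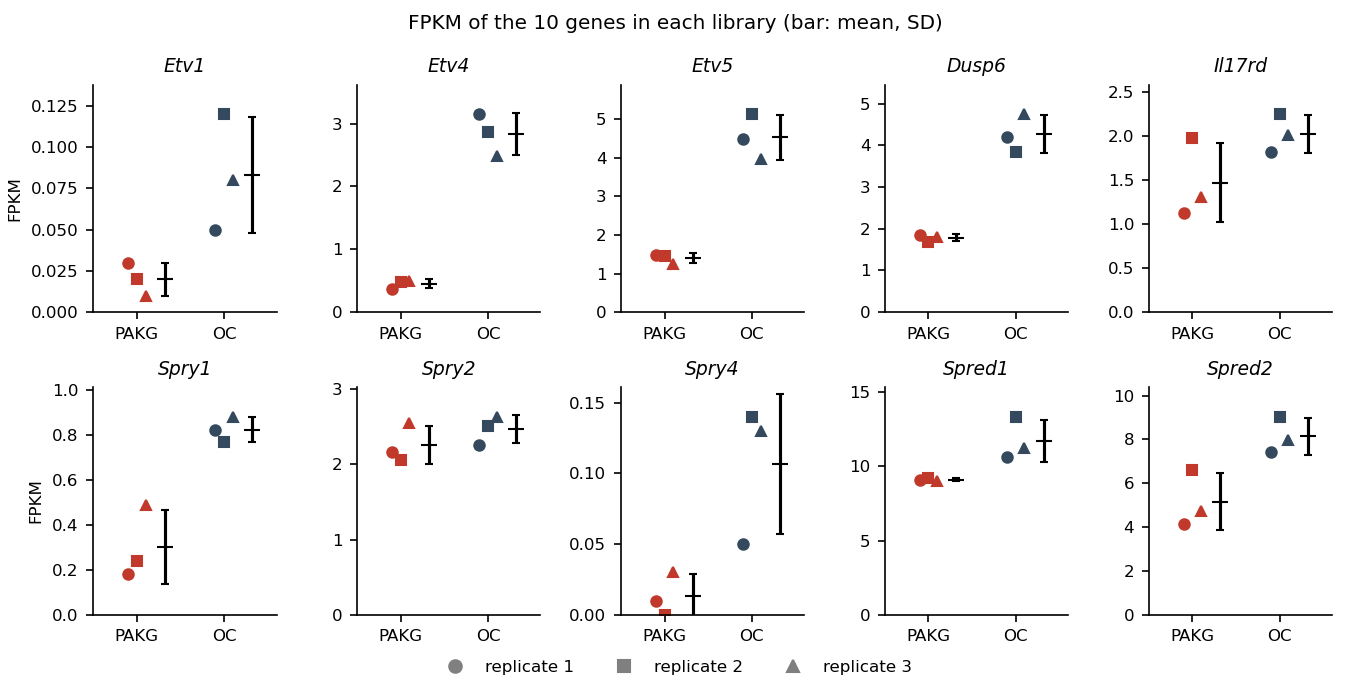
FPKM of each of the 10 genes (vertical axes, linear and starting at 0) in the 3 PAKG and 3 OC libraries, with the marker shape giving the replicate number and the bar the mean with its SD. The 3 PAKG libraries lie below the 3 OC libraries for all genes except Spry2 and Il17rd, and Etv1 and Spry4 stay at or below 0.14 FPKM in all 6 libraries.

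FPKM summed to between 289675.9 and 310581.7 in PAKG and between 295863.6 and 325818.2 in OC, and the depth, inferred from the smallest FPKM steps of short genes, was about 33.2 to 41.8 M fragments in PAKG and 32.4 to 37.2 M in OC. Mitochondrial genes took 9.53% to 10.7% of the FPKM in PAKG and 10.8% to 11.9% in OC, so the groups did not overlap, and the part of this in the results was not tested. PAKG and OC lay on opposite sides of the first principal component (43.9% of the variance), while the second (25.1%) set replicate 2 of both groups apart from the other libraries. The cells had the osteoblast-lineage markers their label implies, and 6 of these 7 (Col1a1, Runx2, Sp7, Alpl, Bglap and Ibsp) were higher in PAKG at the adjusted p, with the 7 summing to between 6830 and 7580 FPKM in PAKG and between 4660 and 5710 FPKM in OC. The call of Col1a1 (adjusted p = 0.0296) was lost without PAKG replicate 1, PAKG replicate 3, OC replicate 1 or OC replicate 3, at up to 0.117, and without a filter on low values (0.46). The part of this shift in the values of the ETV factors and inhibitors was not tested. Of the leukocyte markers, Ptprc, which defines the lineage, was at 0 in all 3 PAKG libraries and at most 0.01 FPKM in OC, and the 3 found in the files summed to 15.8 to 17.3 FPKM in PAKG and 9.15 to 12.0 FPKM in OC, nearly all of it Lyz2. Endothelial markers summed to at most 0.03 FPKM in PAKG and 0.02 FPKM in OC, and epithelial markers to at most 0.62 FPKM in PAKG and 0.18 FPKM in OC. Adipocyte markers summed to at most 0.04 FPKM in PAKG, and in OC to between 0.02 FPKM and the 1.25 FPKM of OC replicate 3. Without OC replicate 3, Etv4, Etv5 and Dusp6 were still lower in PAKG at both thresholds.

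RefSeq start sites on GRCm38.p6 were matched for 8 of the 10 genes, Etv4 and Spry4 not being among them, in windows of 300 bases that run from 250 bases before to 50 bases after the start. Capicua is known to bind the hexamers TGAATG and TCAATG. Shown are 4 windows, of 3 genes that were lower at both thresholds and of Spry2, picked with the values known. The Dusp6 window and the downstream Etv5 window hold 3 hexamers each, that of Spry1 holds none and that of Spry2 holds 1. The upstream Etv5 window holds none, nor do those of Spred1 and Spred2, which were lower at the adjusted p alone. Whether the hexamers bear on the differences was not tested. Sequences run 5′ to 3′ on the strand of the gene and capitals mark every hexamer on either strand, so that one on the other strand reads CATTCA or CATTGA.
Dusp6, chr10:99262981-99263280, plus strand: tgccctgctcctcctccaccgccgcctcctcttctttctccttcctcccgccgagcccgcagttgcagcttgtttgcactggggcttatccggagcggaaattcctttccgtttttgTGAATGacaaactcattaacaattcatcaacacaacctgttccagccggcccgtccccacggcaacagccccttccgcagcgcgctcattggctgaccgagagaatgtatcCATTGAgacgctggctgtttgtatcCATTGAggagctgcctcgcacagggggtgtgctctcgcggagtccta
Etv5, downstream start, chr16:22438319-22438618, minus strand: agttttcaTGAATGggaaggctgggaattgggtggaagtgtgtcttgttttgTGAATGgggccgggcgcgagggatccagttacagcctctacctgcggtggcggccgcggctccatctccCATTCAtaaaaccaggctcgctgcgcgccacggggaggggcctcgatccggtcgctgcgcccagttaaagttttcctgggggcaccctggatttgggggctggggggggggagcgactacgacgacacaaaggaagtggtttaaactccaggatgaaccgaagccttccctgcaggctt
Spry1, chr3:37639697-37639996, plus strand: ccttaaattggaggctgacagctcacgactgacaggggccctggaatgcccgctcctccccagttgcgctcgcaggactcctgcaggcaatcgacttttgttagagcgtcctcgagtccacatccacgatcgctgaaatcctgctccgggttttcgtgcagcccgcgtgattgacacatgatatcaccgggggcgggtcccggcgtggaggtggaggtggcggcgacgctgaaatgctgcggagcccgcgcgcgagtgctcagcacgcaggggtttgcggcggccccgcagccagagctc
Spry2, chr14:105896770-105897069, minus strand: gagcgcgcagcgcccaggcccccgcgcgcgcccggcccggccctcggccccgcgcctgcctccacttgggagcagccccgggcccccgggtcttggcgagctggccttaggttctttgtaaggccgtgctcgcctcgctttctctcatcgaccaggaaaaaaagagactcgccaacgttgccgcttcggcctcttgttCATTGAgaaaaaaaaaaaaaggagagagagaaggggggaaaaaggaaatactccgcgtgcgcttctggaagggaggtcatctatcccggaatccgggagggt
Over 32851 mouse promoters of this length, 19.9% held at least 1 of the hexamers and 0.46% held 3 or more. The upstream start of Etv5 and the windows of Etv1, Spred1, Spred2 and Il17rd held none. The ETS core GGAA, searched on both strands, was found 6 times in the Dusp6 window, 6 times at the downstream Etv5 start, 1 time in Spry1 and 5 times in Spry2, and it occurs in 96.0% of promoters with a median of 3. None of the hexamers overlapped a GGAA. The AP-1 letters TGAGTCA and TGACTCA were in no window of the set and in 5.2% of all promoters. The letters were chosen with these sequences already read, the FPKM are per gene and do not say which start was used, and a match is a description of the window, not a bound site.

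Of the 3 PEA3-type factors, Etv4 had the larger fold difference and Etv5 the higher level. Etv4 (ENSMUSG00000017724, chr11:101769742-101785371 on GRCm38, minus strand) had 0.37, 0.48 and 0.50 FPKM in PAKG, against 3.15, 2.86 and 2.48 FPKM in OC. The lowest OC library was several times above the highest PAKG library. The means were 0.450 ± 0.0700 FPKM in PAKG and 2.83 ± 0.336 FPKM in OC (SD, n = 3 each), a log2 fold change of -2.42 with a standard error of 0.16. By this measure Etv4 ranked 5 of 12590 tested genes from the largest fall. An estimated 37 to 40 fragments per library stood behind the PAKG values and 221 to 255 behind the OC values.

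Etv5 (ENSMUSG00000013089, chr16:22381309-22439719, minus strand) had 1.49, 1.45 and 1.25 FPKM in PAKG, against 4.49, 5.13 and 3.96 FPKM in OC. The groups lay well apart, with 1.40 ± 0.129 FPKM in PAKG and 4.53 ± 0.586 FPKM in OC (SD, n = 3 each). The log2 fold change was -1.62 with a standard error of 0.13, which ranked 23 from the largest fall. Leaving out any one library kept the log2 fold change of Etv4 between -2.50 and -2.31 and that of Etv5 between -1.71 and -1.53, and both stayed lower at both thresholds in all 15 alternative settings.

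Etv1 (ENSMUSG00000004151, chr12:38779380-38870484, plus strand) was at the edge of detection. It had 0.03, 0.02 and 0.01 FPKM in PAKG, against 0.05, 0.12 and 0.08 FPKM in OC, or an estimated 2 to 8 fragments per PAKG library and 11 to 29 per OC library. The groups did not overlap, but the gene was below the filter and was not tested. Summed over the 3 factors, FPKM was 1.89, 1.95 and 1.76 in PAKG, against 7.69, 8.11 and 6.52 in OC. Etv4 made up 19.6% to 28.4% of that sum in PAKG and 35.3% to 41.0% in OC, and Etv5 71.0% to 78.8% in PAKG and 58.4% to 63.3% in OC. The PEA3-type transcripts that remained in PAKG were thus mostly those of Etv5.

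**Figure D2:**
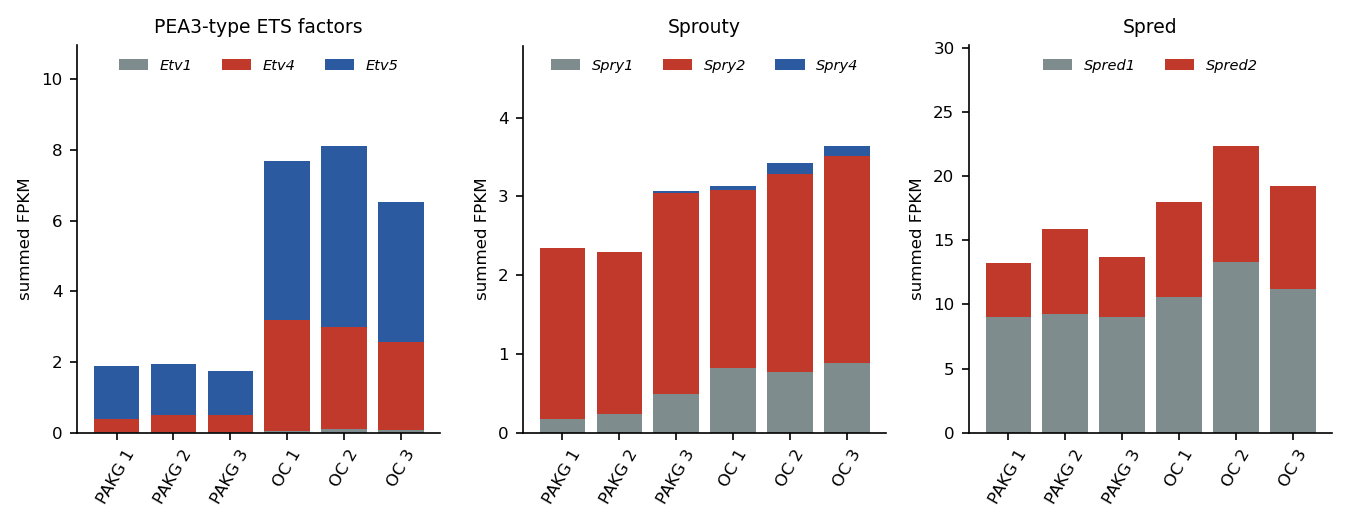
Summed FPKM (vertical axes, starting at 0) of the PEA3-type factors, the Sprouty genes and the Spred genes in each library, with each gene as one colour of the bar. The PEA3-type sum is 1.76 to 1.95 FPKM in PAKG and 6.52 to 8.11 FPKM in OC, the Sprouty sum is mostly Spry2 in all 6 libraries, and the Spred sum is 13.2 to 15.86 FPKM in PAKG and 18.0 to 22.35 FPKM in OC.

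Dusp6 (ENSMUSG00000019960, chr10:99263231-99267489, plus strand), the ERK phosphatase, had 1.86, 1.69 and 1.81 FPKM in PAKG, against 4.20, 3.85 and 4.75 FPKM in OC. The PAKG libraries were tightly grouped and all were below every OC library. The means were 1.79 ± 0.0874 FPKM in PAKG and 4.27 ± 0.454 FPKM in OC (SD, n = 3 each), with a log2 fold change of -1.21 and a standard error of 0.11. Leaving out one library kept the log2 fold change between -1.28 and -1.13. At a pseudocount of 1 it was -0.92, short of the fold threshold. Of all tested genes, 0.492% had a lower log2 fold change than Dusp6 and 0.413% a lower one than Spry1.

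The 3 Sprouty genes differed from one another. Spry1 (ENSMUSG00000037211, chr3:37639947-37644598, plus strand) had 0.18, 0.24 and 0.49 FPKM in PAKG, against 0.82, 0.77 and 0.88 FPKM in OC. All OC libraries were higher, but PAKG replicate 3 was about midway between the other PAKG libraries and OC. The log2 fold change was -1.27 with a standard error of 0.31, the widest of the set, and it ranged from -1.58 to -1.04 as single libraries were left out. An estimated 21 to 45 fragments per PAKG library and 74 to 91 per OC library stood behind it. The call of Spry1 was kept without PAKG replicate 3 and lost at both thresholds when any other single library was left out, namely PAKG replicate 1, PAKG replicate 2, OC replicate 1, OC replicate 2 or OC replicate 3, with 3 genes then called. An antisense locus, Gm42922, overlaps Spry1 and was listed at a mean of 0.00667 FPKM in PAKG and 0.03 FPKM in OC, and whether the counting used strand is not given in the sources used here.

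Spry2 (ENSMUSG00000022114, chr14:105891947-105896819, minus strand) had 2.16, 2.06 and 2.55 FPKM in PAKG, against 2.26, 2.51 and 2.63 FPKM in OC. The groups overlapped, since PAKG replicate 3 was above OC replicates 1 and 2. The log2 fold change was -0.13 with a standard error of 0.12, and 34.0% of all tested genes had a lower one. Spry4 (ENSMUSG00000024427, chr18:38586247-38601415, minus strand) was listed at 0.01, 0.00 and 0.03 FPKM in PAKG, against 0.05, 0.14 and 0.13 FPKM in OC. These values are an estimated 0 to 5 fragments per PAKG library and 8 to 25 per OC library, too few for a test here, and the groups did not overlap. The Sprouty sum was 2.57 ± 0.431 FPKM in PAKG and 3.40 ± 0.256 FPKM in OC (SD, n = 3 each). Spry2 made up 83.1% to 91.9% of it in PAKG and 72.2% to 73.4% in OC, whereas Spry1 made up 7.66% to 16.0% in PAKG and 22.5% to 26.2% in OC.

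The Spred genes, which recruit the Ras GTPase-activating protein neurofibromin to the membrane, were the most abundant of the set. Spred1 (ENSMUSG00000027351, chr2:117121374-117182279, plus strand) had 9.05, 9.24 and 9.01 FPKM in PAKG, against 10.59, 13.32 and 11.24 FPKM in OC. The 3 PAKG libraries were nearly equal and lay below OC, and the log2 fold change was -0.35 with a standard error of 0.09. Spred2 (ENSMUSG00000045671, chr11:19924375-20024026, plus strand) had 4.15, 6.62 and 4.72 FPKM in PAKG, against 7.41, 9.03 and 7.97 FPKM in OC. Replicate 2 was the highest library in both groups, and the log2 fold change was -0.67 with a standard error of 0.17. Neither gene reached the fold threshold. Their calls at the adjusted p alone were lost for both genes without PAKG replicate 1, PAKG replicate 3, OC replicate 2 or OC replicate 3. Without PAKG replicate 2 the call of Spred1 was lost, without OC replicate 1 that of Spred2 was lost, and after rescaling to a common total both were lost.

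Il17rd (ENSMUSG00000040717, chr14:27038941-27107286, plus strand) had 1.13, 1.98 and 1.31 FPKM in PAKG, against 1.82, 2.25 and 2.01 FPKM in OC. The groups overlapped because PAKG replicate 2 was above OC replicate 1. The log2 fold change was -0.47 with a standard error of 0.20, and it did not pass the adjusted p. With the replicate number fitted as a block it passed, which gave 7 of the 8 genes lower at the adjusted p. The same block called 2157 of all 12590 tested genes lower, in place of 1099. Il17rd also passed without PAKG replicate 2. Within same-numbered pairs of libraries the difference was -0.64, -0.18 and -0.58 on the log2 scale. The log2 differences of the other 7 tested genes were likewise negative in all 3 pairs, from -2.79, -2.35 and -2.10 for Etv4 to -0.06, -0.27 and -0.04 for Spry2. For 6 of these 7 the groups did not overlap, so no pairing could give another sign, and the pairs add nothing to that separation. No share of all tested genes with 3 negative pairs is given.

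**Figure D3:**
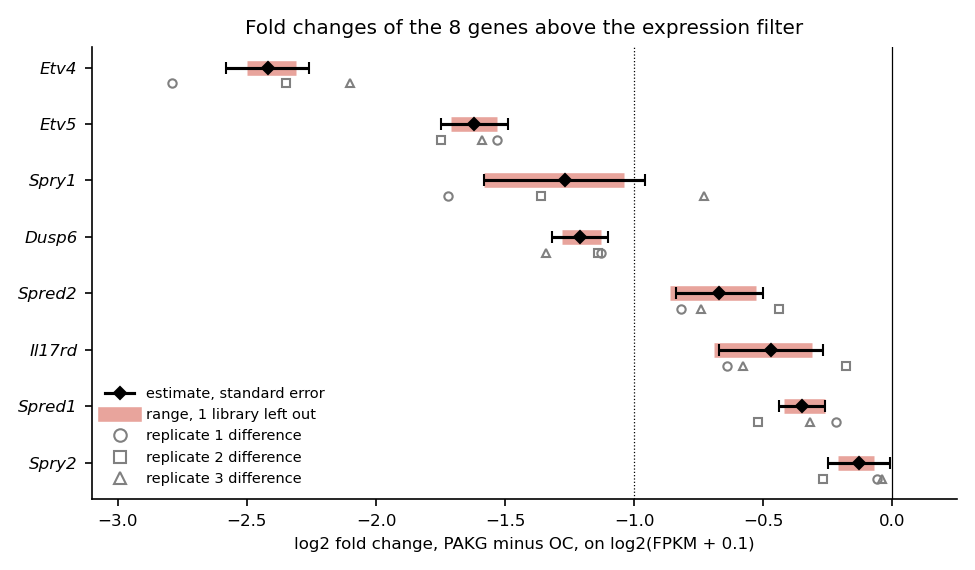
Log2 fold changes (PAKG minus OC, horizontal axis) of the 8 genes above the filter, with the standard error as a black bar, the range when 1 library is left out as a pale bar, and the differences of same-numbered libraries as open markers. The dotted line is a 2-fold fall. Etv4, Etv5, Dusp6 and Spry1 stay past it in the whole left-out range, and Spry1 has the widest error at 0.31.

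The order of the genes by level, which FPKM allows because it is per length, differed between the groups. In PAKG it ran Spred1, Spred2, Spry2, Dusp6, Il17rd, Etv5, Etv4, Spry1, Etv1 and Spry4, from a mean of 9.10 FPKM to a mean of 0.0133 FPKM. In OC it ran Spred1, Spred2, Etv5, Dusp6, Etv4, Spry2, Il17rd, Spry1, Spry4 and Etv1, from a mean of 11.7 FPKM to a mean of 0.0833 FPKM. Etv5 was thus the third most abundant of the set in OC and the sixth in PAKG. Neighbours whose libraries overlapped were Dusp6 with Il17rd, Il17rd with Etv5, Etv4 with Spry1, and Etv1 with Spry4 in PAKG, and Etv5 with Dusp6, Etv4 with Spry2, and Spry4 with Etv1 in OC. The tested genes had a median log2 fold change of -0.94, beside -0.03 over all tested genes. With each library rescaled to a common total these medians were -0.89 and 0.013.

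The rest of the pathway was set beside these genes by lists of named genes, to see whether the cascade, its other inhibitors and its other targets differed too. These lists were also chosen with earlier results of these data known, so their p-values are descriptions. At the adjusted p alone, 8.73% of all tested genes were lower and 5.97% higher, and the list counts stand beside those shares. No such share is given for the unadjusted p. The kinase gene Mapk3 (ERK1) averaged 66.7 ± 6.13 FPKM in PAKG and 67.5 ± 5.90 FPKM in OC (SD, n = 3 each), and the difference did not pass the test, with a log2 fold change of -0.02 ± 0.10 (SE) and an adjusted p of 0.925. Over the 22 tested genes from receptor adaptors to the ribosomal S6 kinases, 0 were higher, 2 lower and 20 not past the test, with a median of -0.03. By limma at an unadjusted p under 0.05, 2 were higher and 4 lower. Among those that fell was Nras, a small GTPase that activates Raf, with 14.78, 12.83 and 13.81 FPKM in PAKG, against 16.81, 16.89 and 17.07 FPKM in OC. The groups did not overlap, and the log2 fold change was -0.29 ± 0.07 (adjusted p = 0.0359). Its call was lost after rescaling to a common total (adjusted p = 0.0673) and without any one of the libraries except PAKG replicate 1, at up to 0.135. Both calls of this list were lost after the rescaling and without PAKG replicate 3, OC replicate 2 or OC replicate 3. The replicate block gave 3 of the 22 higher and 5 lower, beside 2157 of all 12590 tested genes lower. Its count of all genes higher is not given, so the 3 have no share to stand beside.

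Other inhibitors of the pathway were counted in the same way, beside 8.73% of all tested genes lower and 5.97% higher. Among the 6 tested MAP kinase phosphatases besides Dusp6, limma called 0 in either direction, with 1 higher and 0 lower at an unadjusted p under 0.05 and a median of 0.19. The most abundant were Dusp10, which acts mainly on p38 and JNK (15.6 ± 0.956 FPKM in PAKG and 13.5 ± 0.992 FPKM in OC, adjusted p = 0.142, or 0.0217 with the replicate block), and Dusp7, a cytoplasmic ERK phosphatase like Dusp6 (14.2 ± 0.589 FPKM in PAKG and 14.2 ± 0.648 FPKM in OC, adjusted p = 0.973). Dusp4, a nuclear phosphatase, was below the filter at 0.14, 0.30 and 0.10 FPKM in PAKG and 0.27, 0.13 and 0.21 FPKM in OC. Spred3 had 0.72, 0.96 and 0.75 FPKM in PAKG, against 0.81, 0.82 and 0.74 FPKM in OC (adjusted p = 0.951). Of 12 tested Ras GTPase-activating and adaptor inhibitors, 1 fell, 0 rose and 11 did not pass, with a median of -0.18 and 2 lower at an unadjusted p under 0.05. The gene that fell was Errfi1 (Mig6), a feedback inhibitor of EGF receptors, with 4.28, 3.87 and 4.18 FPKM in PAKG, against 6.35, 5.76 and 5.97 FPKM in OC. The libraries did not overlap, and its log2 fold change was -0.54 ± 0.08 (adjusted p = 0.00491). The replicate block gave 4 of the 12 lower, again beside 2157 of all 12590 tested genes.

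Capicua itself (Cic) averaged 7.28 ± 0.825 FPKM in PAKG and 6.32 ± 0.643 FPKM in OC, and the difference did not pass (log2 fold change 0.20, adjusted p = 0.286). It was singled out after its values were seen. A list of 7 genes held Capicua, COP1, a ubiquitin ligase of ETV factors, and proteins that bind either. Of these 7, 1 fell, 0 rose and 6 did not pass, with a median of -0.14. That gene was Trib2, a pseudokinase that binds COP1, with 12.05, 11.60 and 12.26 FPKM in PAKG, against 18.74, 18.82 and 19.18 FPKM in OC. Both groups were tight and far apart, and the log2 fold change was -0.66 ± 0.06 (adjusted p = 0.000839). Cop1 was also lower with the replicate block (adjusted p = 0.0286). Among 13 other ETS factors 1 fell, 0 rose and 12 did not pass, with a median of -0.01. Ets1 averaged 1.93 ± 0.123 FPKM in PAKG and 2.75 ± 0.291 FPKM in OC, with a log2 fold change of -0.49 ± 0.11 (adjusted p = 0.027). It lost the call without PAKG replicate 1, PAKG replicate 3, OC replicate 2 or OC replicate 3, at up to 0.115, and after rescaling to a common total (0.0781). Ets2 was also lower with the replicate block (adjusted p = 0.0125).

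Immediate early genes are those that ERK induces within minutes of a stimulus. Of 12 tested, 3 fell, 0 rose and 9 did not pass at the adjusted p, with a median of 0.10. The zinc-finger factor Egr1 had 2.97, 3.29 and 2.74 FPKM in PAKG, against 5.06, 5.37 and 6.16 FPKM in OC, a log2 fold change of -0.86 ± 0.11 (adjusted p = 0.00232). Its relative Egr2 had 1.67, 1.67 and 1.70 FPKM in PAKG, against 2.90, 2.88 and 2.79 FPKM in OC, a log2 fold change of -0.73 ± 0.09 (adjusted p = 0.00211). Neither overlapped between the groups. Fos had 0.84, 0.84 and 0.80 FPKM in PAKG, against 1.84, 1.12 and 1.37 FPKM in OC (log2 fold change -0.71 ± 0.19, adjusted p = 0.0449). Its call was lost without any one of the libraries except OC replicate 2, at up to 0.137, and after rescaling to a common total (0.0557). By limma at an unadjusted p under 0.05, 3 of the 12 were higher and 3 lower. Junb, Myc and Jun, chosen after their values were seen, were higher in PAKG in the main fit and in every alternative setting. Their groups did not overlap, and over the alternatives their log2 fold changes ran from 0.30 to 0.47, 0.22 to 0.33 and 0.23 to 0.32. In the main limma fit they did not pass the adjusted p (0.0553, 0.0812 and 0.0613). With the replicate block Junb (log2 fold change 0.39), Myc (0.27), Jun (0.27) and Jund (0.22) were higher at the adjusted p, so that 4 of the 12 were higher and 3 lower, and with median-ratio scaling Junb, Myc and Jun were higher. The block called 2157 of all 12590 tested genes lower, and its count of all genes higher is not given.

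In 6 further tested genes that appear in signatures of ERK output, 1 rose, 2 fell and 3 did not pass, with a median of -0.03. Epha2, an ephrin receptor, rose to 20.06, 21.79 and 19.50 FPKM in PAKG, against 11.50, 11.84 and 10.39 FPKM in OC (log2 fold change 0.86 ± 0.08, adjusted p = 0.000792). This was opposite to Etv4 and Dusp6. Lif, a cytokine of the interleukin-6 family, had 0.45, 0.48 and 0.48 FPKM in PAKG, against 1.11, 1.34 and 0.79 FPKM in OC, and was lower at both thresholds (log2 fold change -1.02 ± 0.22, adjusted p = 0.0199). Its call was lost without PAKG replicate 1, PAKG replicate 3, OC replicate 1 or OC replicate 2, at up to 0.0722. Ccnd1 (cyclin D1) averaged 64.2 ± 3.91 FPKM in PAKG and 77.9 ± 2.99 FPKM in OC (log2 fold change -0.28 ± 0.07, adjusted p = 0.0412). It lost the call without any one of the libraries except PAKG replicate 2, at up to 0.158, after rescaling to a common total (0.151) and with median-ratio scaling (0.0635). Phlda1 was also lower with the replicate block (adjusted p = 0.0214).

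At the head of the pathway, FGF receptors differed in both directions. Of 7 tested receptors and ligands, 3 rose, 2 fell and 2 did not pass, with a median of 0.87. Fgfr3 had 17.94, 21.12 and 18.44 FPKM in PAKG, against 4.86, 5.02 and 4.04 FPKM in OC, a log2 fold change of 2.03 ± 0.11 (adjusted p = 0.00013), and it was the one gene of the list past both thresholds. Fgfr2 averaged 58.4 ± 6.20 FPKM in PAKG and 31.8 ± 2.87 FPKM in OC (log2 fold change 0.87 ± 0.10, adjusted p = 0.00164). Fgfrl1, which binds FGF but has no tyrosine kinase domain, averaged 17.3 ± 0.667 FPKM in PAKG and 9.15 ± 0.757 FPKM in OC (log2 fold change 0.91 ± 0.08, adjusted p = 0.000686). The ligand Fgf7 had 26.58, 21.90 and 24.16 FPKM in PAKG, against 35.35, 36.54 and 38.13 FPKM in OC, with no overlap (log2 fold change -0.60 ± 0.09, adjusted p = 0.00395). Fgfr1 averaged 40.8 ± 1.20 FPKM in PAKG and 49.4 ± 3.41 FPKM in OC (log2 fold change -0.27 ± 0.07, adjusted p = 0.0473). It lost the call without any one of the libraries except PAKG replicate 2, at up to 0.163, after rescaling to a common total (0.162) and with median-ratio scaling (0.0637). One value of this list stands apart, Fgf2 being listed at 0.04 FPKM in OC replicate 3, with 0.97, 1.03 and 1.04 FPKM in PAKG and 0.90 and 1.13 FPKM in the other OC libraries. The log2 fold change of Fgf2, 1.0 ± 0.75 (adjusted p = 0.431), rests on that value and counts toward the median of the list. Over the alternative settings it ran from 0.0 to 1.57. Of 4 tested EGF receptors and ligands limma called 0, with 0 higher and 2 lower at an unadjusted p under 0.05 and a median of -0.25. Erbb2 averaged 9.18 ± 0.478 FPKM in PAKG and 9.35 ± 0.398 FPKM in OC (adjusted p = 0.859). Egfr averaged 0.897 ± 0.237 FPKM in PAKG and 1.53 ± 0.287 FPKM in OC (adjusted p = 0.0607), and it was lower with the replicate block (0.00971) and without PAKG replicate 2 (0.0205).

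**Figure D4:**
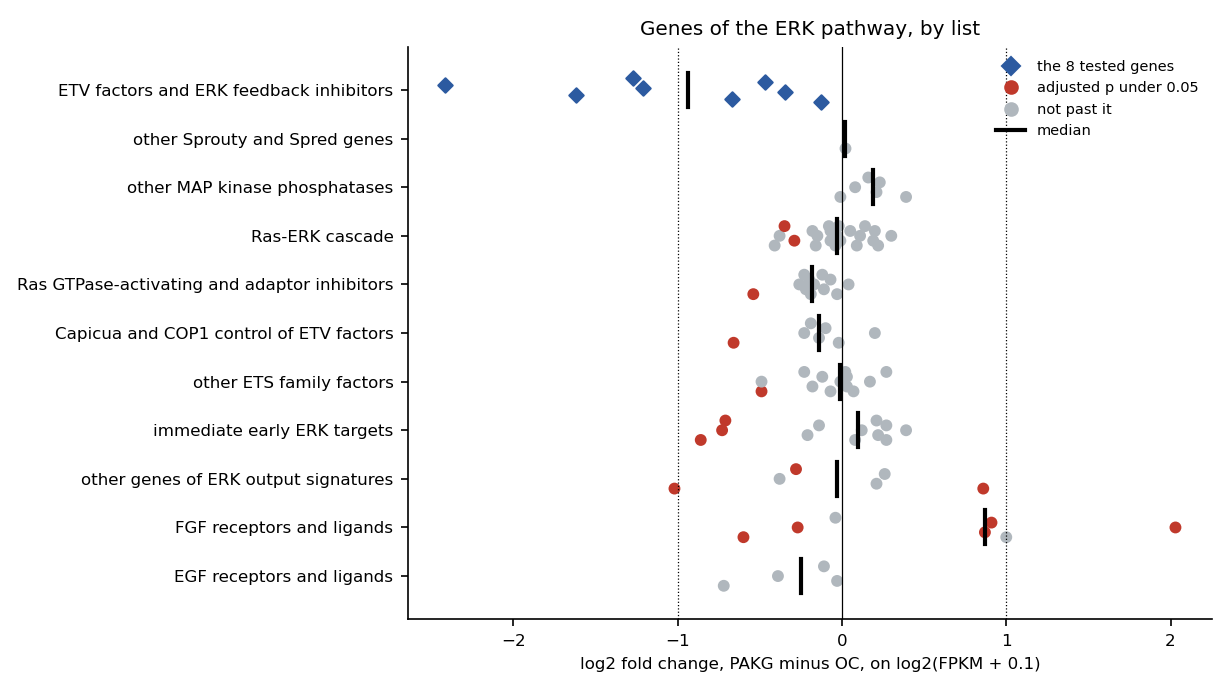
Log2 fold changes (PAKG minus OC, horizontal axis) of the tested genes of each list, with red points for an adjusted p under 0.05, grey points for the others and a black tick for the median of the list. The dotted lines are 2-fold changes. The 8 tested ETV factors and inhibitors (blue, median -0.94, chosen on this contrast) all lie below 0, the Ras-ERK cascade centres on -0.03, and Fgfr3 lies farthest right at 2.03.

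Among the 9149 genes that averaged 2 FPKM or more, those whose log2 values followed Etv4 most closely over the 6 libraries were Mybl2, Mcm5, Spidr, Vcam1 and Il1rl1. Pearson's r was 0.9989, 0.9988, 0.9984, 0.9982 and 0.998, given as a description without a test, and most of it is the difference between the groups that these genes share. Mybl2 is a cell-cycle transcription factor and Mcm5 a subunit of the replicative helicase, Spidr takes part in recombination repair, Vcam1 is an adhesion molecule and Il1rl1 is the receptor of interleukin-33. Mcm5 had 30.96, 33.20 and 33.18 FPKM in PAKG, against 57.15, 53.34 and 51.61 FPKM in OC. Il1rl1 had 1.68, 1.86 and 1.99 FPKM in PAKG, against 5.72, 5.55 and 5.48 FPKM in OC. As with Etv4, PAKG replicate 1 was the lowest and OC replicate 1 the highest library for both.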

How the data were processed

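Poly(A) RNA of 3 PAKG and 3 OC samples of MC3T3-E1 cells was sequenced, and each library has a table of FPKM deposited by the authors, rounded to 2 decimals and covering 26187 genes. By the submitters' processing notes, GRCm38 was the build and the tools were HISAT2, StringTie, cutadapt, FastQC and DESeq2. Their versions and the annotation release were not stated in the sources used here. Since the authors' FPKM are not read counts, count models were left out, and depth was inferred from the smallest FPKM steps of genes of 300 to 1000 bases. FPKM near the pseudocount are coarse after rounding. Groups and replicate numbers were read from the labels.

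Values were transformed to log2(FPKM + 0.1). Genes averaging 0.5 FPKM or more, 12590 in number, entered a 2-sided comparison with limma 3.58.1 in R 4.3.3 (eBayes with trend), with Benjamini-Hochberg adjustment over all of them. The fit had 4 residual and 3.54 prior degrees of freedom. The thresholds were an adjusted p under 0.05, with or without a fold change of at least 2. The calling step was tested on simulated data, with independent normal noise of each gene's own spread on the log2 scale. The simulation did not model rounding, fragment counts or deviations shared by same-numbered libraries, so it cannot vouch for the calls of low genes. Where a symbol stood for several gene IDs (45 symbols), the ID with the highest mean was used for the named genes. All IDs above the filter entered the fit, the adjustment and the counts over all genes. Coordinates were taken from GENCODE M21 for 99.76% of gene IDs, and promoter sequences from RefSeq. Python 3.11.15, pandas 2.3.3, numpy 2.4.6 and matplotlib 3.10.9 served for tables and figures.

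The members and the gene lists were chosen with earlier results of these data known. No p-value is therefore given for the members, and those of the listed genes are descriptions, not independent tests. Named genes are all 10 members, up to 4 genes per list past the adjusted p or else the 2 with the highest mean, Mapk3, Fgfr1 to Fgfr3 and the 5 genes closest to Etv4. Some results that meet this rule are not reported here. The groups share replicate numbers, and neither the labels nor the methods say what a number marks. The deviations of same-numbered samples from their group means correlated at 0.24, 0.43 and 0.192 over the tested genes, all above 0.1, and those of other pairs at -0.312 to 0.138, so the number was also fitted as a block. The other alternatives were pseudocounts of 1 and 0.01, a filter at 1 FPKM, no filter, rescaling to a common total, median-ratio scaling, no trend, each library left out and, chosen after seeing the data, replicate 2 of both groups left out.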

Additional observations from a re-analysis of the deposited data

How the results depend on the processing

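Across 15 alternative settings the log2 fold changes of the 8 tested genes gave 119 values. For the 6 of these genes whose groups did not overlap, only rescaling of the libraries could have reversed the sign. Of the 119 values, 0 changed sign. The 5 that moved by more than the replicate spread came from the pseudocount, and at a pseudocount of 1 they were -1.40 for Etv4, -1.20 for Etv5, -0.92 for Dusp6 and -0.49 for Spry1, whereas at 0.01 that of Etv4 was -2.63. At a pseudocount of 1, 2 of the genes (Etv4 and Etv5) and 28 of all genes were lower at both thresholds, in place of 4 and 73. With single libraries left out, 3 to 4 of the genes were lower at both thresholds and 3 to 5 at the adjusted p alone, and over all genes 63 to 98 at both thresholds and 500 to 1240 at the adjusted p alone, in place of 1099. Without a filter 3 of the genes were lower at the adjusted p alone, and Nras, Ets1, Fos, Ccnd1, Lif, Fgfr1, Col1a1 and Lyz2 lost their calls; the cause was not tested. With the replicate block the counts were 4 and 7 of the genes and 2157 of all genes at the adjusted p alone, and apart from Il17rd and the calls given with the lists the block changed no other call of the genes named. Without replicate 2 of both groups, an alternative chosen after seeing the data, 3 of the genes were lower at both thresholds and 6 at the adjusted p alone. Etv4, Etv5 and Dusp6 passed the adjusted p in every setting. FPKM carry no read counts, so Etv1 and Spry4, at an estimated 0 to 29 fragments per library, could not be compared with any precision.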
